A study of Arabidopsis thaliana with 24 samples.

Results

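PPL is a GFP localization line of Arabidopsis thaliana whose iron-deficient roots were set against iron-deficient wild-type roots, gene by gene. The comparison took in every gene with an RPKM (reads per kilobase of gene, scaled to library size) of at least 1 in either group, which was 18870 of 33602 genes. RNA of 7-day-old roots was sequenced in 3 samples of each group, and pye-1, the other 4 localization lines and iron-sufficient wild type serve here only to place the values of PPL. Every seedling had iron for the first 4 days. For the last 3 days PPL, pye-1, the other lines (SHR23, PEP45, WER13 and WER65) and the iron-deficient wild type were on medium that lacked FeEDTA and held 300 µM ferrozine, which binds ferrous iron, while iron-sufficient wild type kept 0.1 mM FeEDTA. The labels give V-EN-C-EP as the place of GFP in PPL without spelling the codes out. The sources used here do not give the promoter of the construct, the number of transgenic lines behind PPL or the genotype it was put into. Values were deposited as 1 mean for each group, so a level below is the authors' mean of 3 samples, no spread between samples can be given, and the only test is the q-value in the authors' deposited table for PPL, whose underlying test is not stated. "Rose" and "fell" are kept for genes in the authors' tables.

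POPEYE (PYE) is a transcription factor of the basic helix-loop-helix family, made in the root when iron runs short and known for holding down genes of iron movement and storage. Iron-starved roots of this species release coumarins, reduce ferric iron at the surface and import the ferrous iron formed, while ferritins and vacuolar iron transporters, which put iron away, are kept low. The loss-of-function mutant pye-1 is known for poor growth when iron is short.

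PPL lay near wild type for most genes. The authors' deposited table listed 3 genes, PYE, CNGC12 and MRD1, or 0.0159% of the genes compared. Of the 18870 genes, 17117 (90.7%) stood within 1.25-fold of iron-deficient wild type on the log2(RPKM + 0.5) scale and 18426 (97.6%) within 1.5-fold. The median size of a difference, whatever its sign, was 0.10 on that scale. In pye-1 it was 0.26 over 19090 genes, of which 58.1% stood within 1.25-fold, and in the other 4 lines it was between 0.23 and 0.28. These comparisons share the wild-type mean. The middle of the PPL differences was at -0.01. RPKM are scaled to library size, so a shift of all transcripts together would not show in it.

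The genes furthest from wild type were mostly lower in PPL. A 2-fold difference or more was seen for 120 genes (0.636%), 10 of them higher (0.053%) and 110 lower (0.583%). At 1.5-fold or more, 444 genes stood apart (2.35%), 135 of them higher (0.715%) and 309 lower (1.64%). In pye-1 8.91% of genes stood at least 2-fold apart. Of the 120 genes 52 (43.3%) had a mean RPKM between 0.5 and 2, against 9.93% of all genes compared, and 10 (8.33%) had a mean of 20 or more, against 37.1%. The median size of a difference was 0.19 on the log2 scale between 0.5 and 2 RPKM and 0.08 between 20 and 100 RPKM. Steps between the lowest values corresponded to effective libraries of 15624094 to 18627022 reads for PPL and 17009049 to 20152678 for wild type, so 1 RPKM in a transcript of 1 kilobase rests on about 50.8 and 55.5 reads over the 3 libraries.

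**Figure D1:**
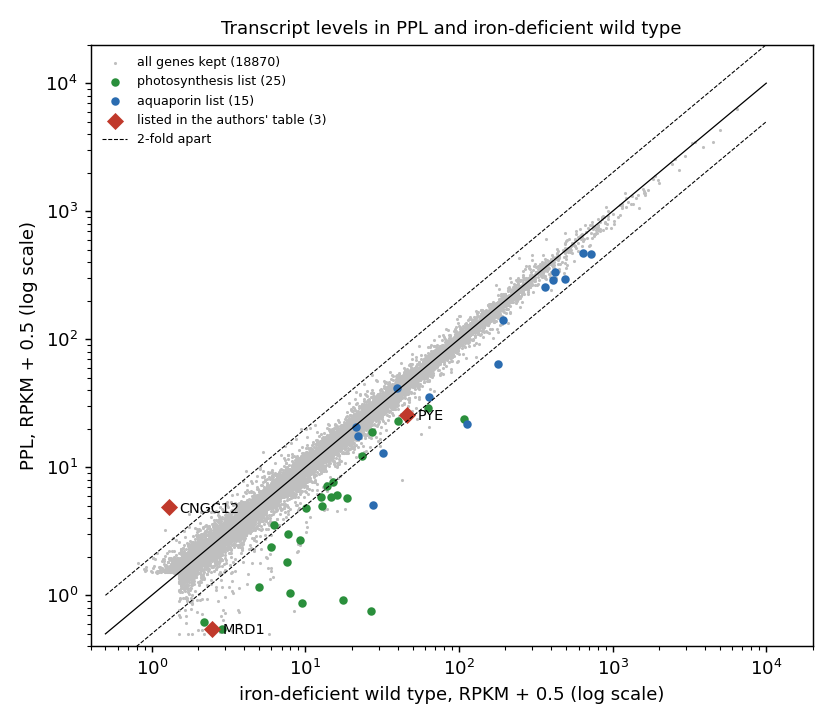
Mean RPKM plus 0.5 of each gene in iron-deficient wild type (horizontal, log scale) and PPL (vertical, log scale). Most of the 18870 genes lie near the diagonal between the dashed 2-fold lines, the photosynthesis genes (green) all lie under the diagonal, and of the 3 genes the authors list (red) CNGC12 lies above it and PYE and MRD1 below.

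The listed genes had different patterns over the groups. PYE (AT3G47640, chromosome 3, 17567126 to 17569394, plus strand, TAIR10.1) fell from 45.1 RPKM in iron-deficient wild type to 25.3 in PPL, with q = 0.0178 in the authors' deposited table. About 1781 reads in PPL and 3463 in wild type lie behind these values, and counting error alone leaves the ratio between 0.531 and 0.596 (95% exact binomial interval, here and below over reads pooled from 3 libraries and without the spread between samples). The PPL level lay between iron-sufficient wild type at 11.0 and iron-deficient wild type. PYE stood at 20.6 in pye-1, 27.5 in WER65, 28.9 in PEP45, 30.3 in WER13 and 45.8 in SHR23. The authors also list it as a fall in pye-1, PEP45 and WER65, and do not list it for SHR23 or WER13. Reads of the native gene and of a construct cannot be told apart in these values.

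CNGC12 (AT2G46450, chromosome 2, 19065536 to 19069569, plus strand), a cyclic nucleotide-gated ion channel gene, rose from 0.794 to 4.39 RPKM, with q = 0.00296 in the authors' deposited table. About 765 reads against 151 give a ratio between 4.65 and 6.64 from counting error. CNGC12 stood at 5.31 in pye-1, 5.40 in SHR23, 5.48 in PEP45, 5.17 in WER13 and 5.82 in WER65, and at 1.31 in iron-sufficient wild type. PPL and the 5 other non-wild-type groups were thus all above both wild-type groups at this gene. The neighbouring CNGC11 (AT2G46440), whose coding sequence is 82.8% identical, had about 1 read in PPL and 0 in wild type, and how the authors placed reads that fit both is not known here. CNGC3, on the other side of CNGC11, stood at 29.6 in PPL and 32.5 in wild type.

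MRD1 (AT1G53480, chromosome 1, 19963047 to 19964712, minus strand), annotated as mto 1 responding down 1, fell from 1.96 to 0.0457 RPKM, with q = 0.0452 in the authors' deposited table. Only about 3 reads in PPL stood against 136, and the wild-type level was between 13.9 and 204 times that of PPL from counting error. The groups fell into high and low levels: 1.498 in iron-sufficient wild type, 1.93 in pye-1 and 2.77 in SHR23, but 0.0520 in PEP45, 0.0358 in WER13 and 0 in WER65. HEI10, a RING domain protein gene on the opposite strand whose span overlaps that of MRD1, stood at 0.892 in PPL and 1.43 in wild type, and whether strand was used in counting is not given in the sources used here. The other neighbours, AT1G53460, MSL4 and MUM4, stood at 13.5, 6.38 and 19.97 in PPL and at 11.4, 5.59 and 19.2 in wild type.

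Genes beside PYE parted in PPL. AT3G47630, annotated as a translocator assembly/maintenance protein and lying next to PYE on the minus strand, rose in pye-1 from 9.35 to 40.1 RPKM (q = 8.33e-07 in the authors' deposited table). It stood at 10.5 in PPL, and at 39.7 to 48.9 in the other 4 lines. PPL was thus the only non-wild-type group without the high level of this gene. On the other side, AT3G47650, a gene for a DnaJ/Hsp40 cysteine-rich domain protein that starts shortly after the end of PYE, fell in pye-1 from 4.60 to 1.18 (q = 0.00317 in the authors' deposited table). It stood at 1.29 in PPL, about 59 reads against 232, and at 0.187 to 1.58 in the other lines. At this gene PPL was on the side of pye-1, although the authors do not list it for PPL. TCP14, a transcription factor gene that fell in pye-1 from 32.6 to 18.4 (q = 5.05e-05 in the authors' deposited table), stood at 30.4 in PPL. Whether the mutant locus bears on these levels was not tested.

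**Figure D2:**
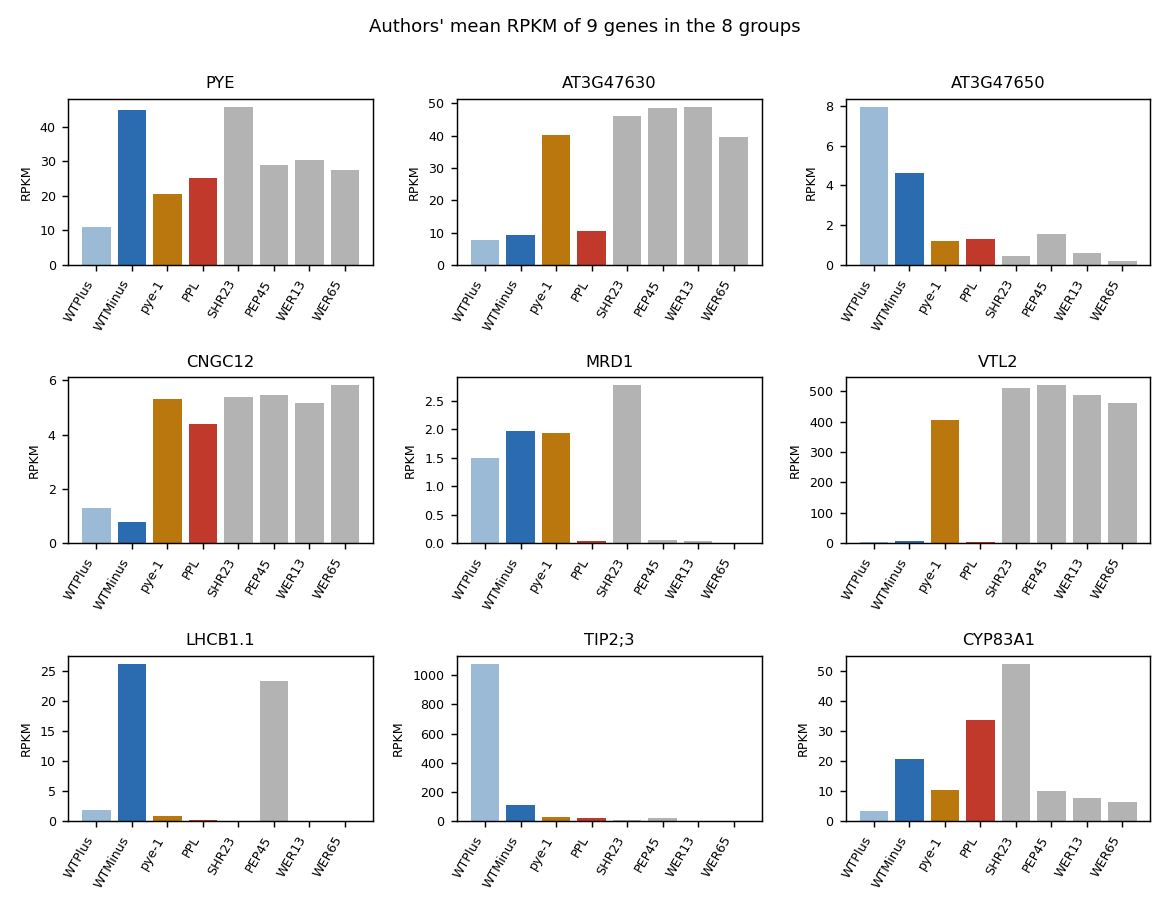
The authors' mean RPKM (vertical axes from 0, 1 bar per group, no spread available) of 9 genes in iron-sufficient wild type (WTPlus), iron-deficient wild type (WTMinus), pye-1, PPL and the other 4 lines. PPL (red) stands with wild type at VTL2 and AT3G47630, with pye-1 and the other lines at CNGC12 and AT3G47650, and under iron-deficient wild type at LHCB1.1 and TIP2;3.

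Genes that the authors list for pye-1 were mostly close to wild type in PPL. That table holds 19.4% of the genes compared for pye-1, 9.1% as rises and 10.3% as falls. Of the genes compared here for PPL, 1568 rose and 1969 fell in pye-1. The risers had a median log2 difference from wild type of 0.80 in pye-1 and 0.13 in PPL, and 1508 of them (96.2%) stood within 1.5-fold of wild type in PPL. The medians for the genes that fell were -0.94 in pye-1 and -0.16 in PPL, with 1851 (94.0%) within 1.5-fold. Of all genes compared for PPL 97.6% stood within 1.5-fold and 90.7% within 1.25-fold. Within 1.25-fold stood 80.5% of the genes that rose and 75.6% of those that fell. The listed genes were thus close to wild type less often than genes in general. For the genes at least 2-fold apart in pye-1 the PPL medians were 0.18 over 527 genes that rose and -0.26 over 892 that fell. Both differences are taken from the same wild-type mean, so any error of that mean enters both, and the small medians in PPL were not tested.

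**Figure D3:**
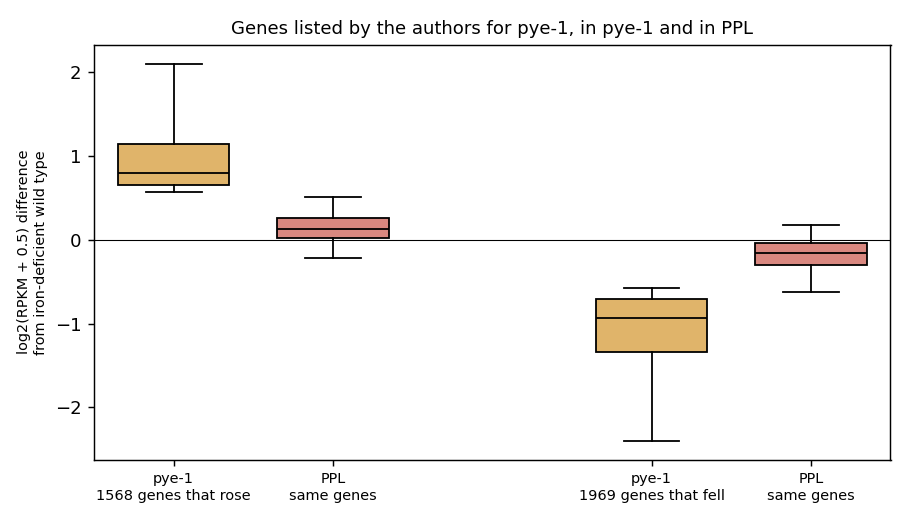
Differences from iron-deficient wild type on the log2(RPKM + 0.5) scale (vertical) of genes that rose or fell in pye-1 by the authors' table, shown in pye-1 (amber) and in PPL (red). Lines mark medians, boxes the quartiles and whiskers the range from percentile 5 to 95; the PPL medians are 0.13 and -0.16 where those of pye-1 are 0.80 and -0.94.

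Iron storage genes, high in pye-1, were near the wild-type level in PPL. VTL2 (AT1G76800), a vacuolar iron transporter family gene and the largest riser of pye-1 on the log2(RPKM + 0.5) scale, stood at 5.96 RPKM in wild type, 404 in pye-1 and 5.58 in PPL. Its relative VTL1 stood at 0.180, 39.6 and 0.131 in the same order. FER1, a ferritin gene, stood at 3.34, 53.5 and 2.79. All 3 genes are in the authors' table for pye-1 and none is in that for PPL. Of the 12 storage genes 5 passed the level filter, 4 of them lower in PPL by value, with a median of -0.11 against 3.73 in pye-1. The widest of them was VTL5, at 4.81 in PPL, 8.67 in wild type and 121 in pye-1. Like VTL1, other large risers of pye-1 were under 1 RPKM in both PPL and wild type and so did not pass the filter. Of these, NAS3, a nicotianamine synthase gene, stood at 0, 24.8 and 0.117, NEET, for an iron-sulfur protein, at 0.0365, 19.96 and 0.0428, and ENH1, a rubredoxin family gene, at 0.445, 43.3 and 0.512. AT3G13840, a GRAS family transcription factor gene, stood at 0.159, 11.5 and 0.0519, and GASA3, a GAST1 homolog, at 0.030, 8.79 and 0.204. All 5 are in the authors' table for pye-1, and NEET and ENH1 are also among the 12 storage genes.

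Among the 10 largest risers of pye-1 NRT2.1 lay furthest from wild type in PPL on the log2 scale. NRT2.1 (AT1G08090), a high-affinity nitrate transporter gene, stood at 0.724 in wild type, 50.4 in pye-1 and 2.76 in PPL. CML38, a calmodulin-like gene, stood at 2.50, 45.6 and 3.75. Some genes picked for being higher in PPL also rose in pye-1, among them CYP82C2, a cytochrome P450 gene just past the 2-fold line, at 0.874, 6.13 and 2.31, AT1G56150, a SAUR-like gene at 4.80, 16.2 and 12.6, and AT1G26240, a proline-rich extensin-like gene at 3.62, 19.9 and 8.90. None of these 5 is in the authors' table for PPL. Both differences are taken from the same wild-type mean, so a low value of it raises both, and this overlap is not given as a result.

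The 10 largest falls of pye-1 were all nearer to wild type than to pye-1 in PPL on the log2 scale, and all stood under wild type. They were picked for a wide gap between wild type and pye-1, which favours a high wild-type mean and a low pye-1 mean. That choice by itself tends to place PPL between the groups, so its place there was not tested. CYP71B5, a cytochrome P450 gene, stood at 54.8 in wild type, 1.42 in pye-1 and 33.8 in PPL. AT2G30670, annotated as a Rossmann-fold protein gene, stood at 30.3, 1.60 and 14.2 and was the only one of the 10 at least 2-fold lower in PPL. ZIP8, a metal transporter gene of the ZIP family, stood at 97.6, 6.89 and 67.3, and RHS19, a root hair gene, at 25.2, 2.07 and 18.0. The narrowest gaps were those of AT3G09925, at 79.0, 7.63 and 66.3, and CYP82C4, an enzyme of the coumarin sideretin, at 1016, 89.4 and 839.

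Genes that the authors list for iron deficiency itself, wild type against wild type, were close to their iron-deficient level in PPL. That table holds 10.4% of the genes compared there as rises and 12.1% as falls. The 2002 that rose had a median of 1.199 in wild type and stood at -0.01 in PPL against iron-deficient wild type, and the 2102 that fell had medians of -0.92 and -0.08. Of these, 1911 (95.5%) and 2014 (95.8%) stood within 1.5-fold in PPL, against 97.6% of all genes compared. Within 1.25-fold the shares were 80.1% and 82.7%, against 90.7%, so these genes were close less often than genes in general. Iron-deficient wild type enters both differences.

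The iron uptake genes were all a little lower. Of 19 genes, 19 were lower by value and 0 higher, with a median of -0.27, against 52.4% lower among all genes compared, and none was as far as 1.5-fold apart. Among the 4 widest were IRT2, an iron transporter gene, at 90.7 RPKM in PPL and 135 in wild type, ZIP8, and MYB72, a transcription factor gene of the coumarin response, at 28.0 and 37.7. In pye-1 these 3 stood at 26.2, 6.89 and 11.2, and 18 of the 19 genes are in the authors' table as falls. Regulators of the response did not lean: 9 of 20 were higher and 11 lower, with a median of -0.03. BHLH38 and BHLH39, which work with the master regulator FIT, stood at 730 and 746 in PPL against 744 and 763. Besides PYE itself, the widest were AT2G30766, annotated as an uncharacterized protein and at 36.4 in PPL, 22.2 in wild type and 46.3 in pye-1, and BHLH11, a repressor gene, at 1.00, 0.587 and 6.65.

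Genes of iron movement and reported targets of PYE stayed near wild type. Of 15 movement genes 9 were higher and 6 lower, with a median of 0.02. NAS1, a nicotianamine synthase gene, had the largest gap, at 134 in PPL, 207 in wild type and 36.3 in pye-1. NAS4, of the same family and a reported PYE target, stood at 143, 119 and 142. Among the targets in these lists, 7 of 8 passed the filter, with a median of -0.08 in PPL and 0.96 in pye-1. ZIF1, a nicotianamine transporter gene, stood at 184 in PPL and 191 in wild type, and FRO3, a ferric reductase gene of the vasculature, at 346 and 367.

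**Figure D4:**
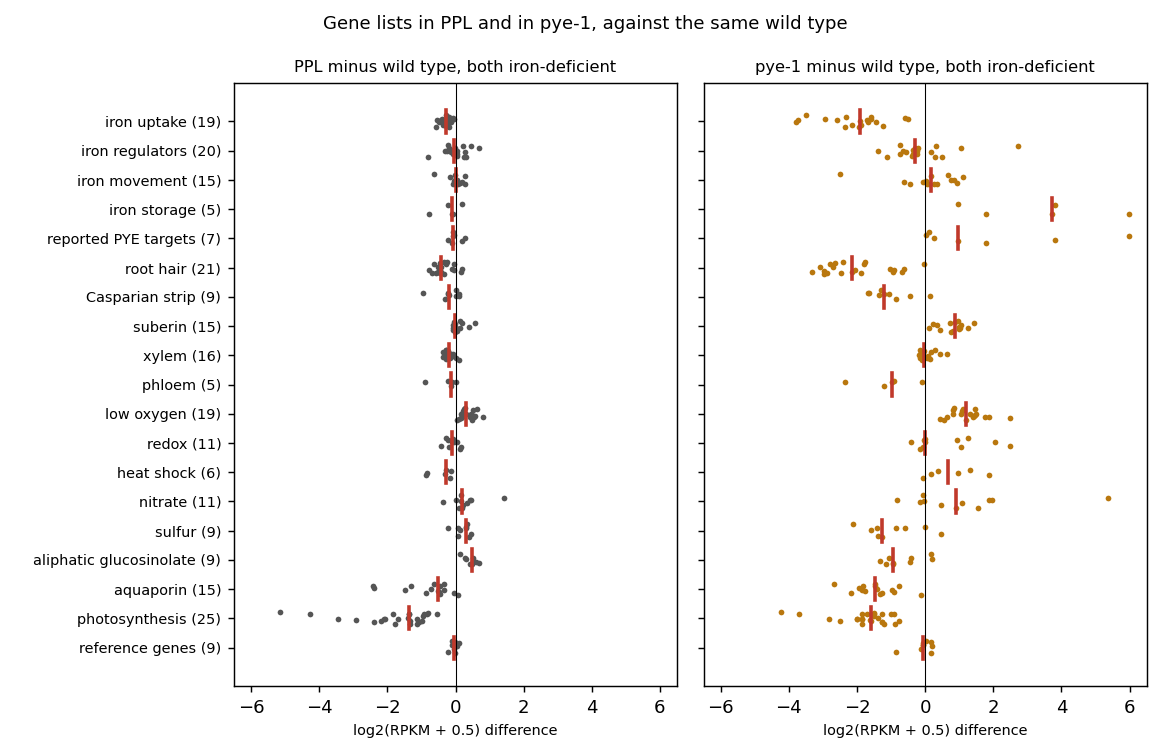
Differences from iron-deficient wild type on the log2(RPKM + 0.5) scale (horizontal) for the genes of 19 lists, with the number compared in brackets, in PPL (left, grey) and pye-1 (right, amber). Each point is a gene and each red bar a median; in PPL photosynthesis genes reach furthest, with a median of -1.37, and glucosinolate and sulfur genes lie to the right of 0 where in pye-1 they lie mostly to the left.

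Photosynthesis transcripts were the group furthest from wild type. Of the 26 nuclear genes of the list 25 passed the filter, all 25 were lower in PPL by value, 19 by 2-fold or more, and the median was -1.37. None of them is in the authors' table for PPL or for pye-1. LHCB1.1 (AT1G29920), a gene for a light-harvesting chlorophyll-binding protein of photosystem II, stood at 0.253 RPKM in PPL, about 17 reads, and 26.2 in wild type, about 1912. Its relatives LHCB1.2 and LHCB1.4 stood at 0.413 and 0.367 against 17.0 and 8.96. Iron-sufficient wild type was itself low at these 3 genes, at 1.94, 2.51 and 3.74, so the wild-type groups differed from each other there as well. The most abundant members had smaller gaps: LHCB1.3 stood at 23.3 against 108, and RBCS1A, a gene for the small subunit of Rubisco, at 28.5 against 62.6.

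LHCB1.1, LHCB1.2 and LHCB1.3 were among the 10 widest gaps on the lower side, so their coding starts are given to show how little separates their reads. The coding sequence of LHCB1.1 was 95.6% identical to that of LHCB1.2 and 96.1% to that of LHCB1.3, and LHCB1.2 and LHCB1.3 were 96.4% identical, each over 804 bases. The first 120 coding bases, 5′ to 3′ from RefSeq TAIR10.1, follow, with the 9 positions where the genes differ in capitals.
LHCB1.1 (AT1G29920, chr1:10475773-10475892, minus strand): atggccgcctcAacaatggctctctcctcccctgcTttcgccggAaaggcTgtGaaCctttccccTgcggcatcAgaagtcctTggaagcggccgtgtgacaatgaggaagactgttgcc
LHCB1.2 (AT1G29910, chr1:10473127-10473246, minus strand): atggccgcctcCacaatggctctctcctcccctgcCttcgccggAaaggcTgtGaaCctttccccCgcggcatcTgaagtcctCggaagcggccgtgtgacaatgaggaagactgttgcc
LHCB1.3 (AT1G29930, chr1:10478071-10478190, plus strand): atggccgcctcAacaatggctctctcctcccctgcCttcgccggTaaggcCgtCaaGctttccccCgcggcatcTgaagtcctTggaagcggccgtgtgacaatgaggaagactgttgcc
How the authors placed reads that fit more than 1 of these genes is not given in the sources used here, so the split between the 3 is uncertain, while all 3 were lower in PPL.

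The summed photosynthesis levels did not part the wild-type groups from all the others. The summed RPKM of the 26 genes was 488 in wild type on iron, 473 in wild type without it, 131 in pye-1, 162 in PPL and 574 in PEP45, but 62.4 in SHR23, 32.7 in WER13 and 30.9 in WER65. PPL was thus near pye-1, under both wild-type groups and PEP45, and above the other 3 lines. No member of the list was at 0 in PPL; the lowest was RBCS1B at 0.0443. Such transcripts also mark green tissue, the roots had been cut from the shoots, and the part of shoot tissue in this difference was not tested. In whole roots, fewer cells of a type and less RNA per cell cannot be told apart, here and for the lists below.

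The promoters of these genes were read for a pair of motifs common in light-regulated genes, since the members moved together by value. The G-box core CACGTG, which reads the same on both strands and is also a binding motif of basic helix-loop-helix factors, was in the 250 bases before the annotated start of 5 of the 26 genes (19.2%), against 6.49% of 27443 nuclear protein-coding genes. GATAAG on either strand was in 8 (30.8%), against 12.3%. The 5 windows that hold CACGTG are given 5′ to 3′ from RefSeq TAIR10.1, ending at the base before the start, with both motifs in capitals on whichever strand.
RBCS2B (AT5G38420, chr5:15382072-15382321, minus strand): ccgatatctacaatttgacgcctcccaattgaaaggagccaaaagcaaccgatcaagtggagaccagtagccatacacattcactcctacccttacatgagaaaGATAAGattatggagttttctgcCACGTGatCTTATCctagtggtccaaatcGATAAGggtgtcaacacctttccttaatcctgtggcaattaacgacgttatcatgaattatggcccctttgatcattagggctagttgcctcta
LHCB4.1 (AT5G01530, chr5:208616-208865, plus strand): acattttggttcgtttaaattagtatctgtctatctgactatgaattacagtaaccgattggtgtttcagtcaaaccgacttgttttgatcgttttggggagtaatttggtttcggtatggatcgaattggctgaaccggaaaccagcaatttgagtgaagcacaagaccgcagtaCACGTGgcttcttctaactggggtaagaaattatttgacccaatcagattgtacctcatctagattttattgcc
LHCB6 (AT1G15820, chr1:5447881-5448130, minus strand): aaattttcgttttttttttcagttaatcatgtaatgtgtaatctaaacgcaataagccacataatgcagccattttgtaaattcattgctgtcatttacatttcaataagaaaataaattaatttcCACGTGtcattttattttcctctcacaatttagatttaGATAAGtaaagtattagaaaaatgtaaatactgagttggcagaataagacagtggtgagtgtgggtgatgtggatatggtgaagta
LHCA4 (AT3G47470, chr3:17495034-17495283, minus strand): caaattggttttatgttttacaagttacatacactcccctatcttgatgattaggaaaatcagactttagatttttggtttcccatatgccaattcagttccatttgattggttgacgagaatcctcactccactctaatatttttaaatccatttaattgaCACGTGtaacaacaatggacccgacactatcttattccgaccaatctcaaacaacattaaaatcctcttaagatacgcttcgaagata
PSBQ (AT4G21280, chr4:11334102-11334351, plus strand): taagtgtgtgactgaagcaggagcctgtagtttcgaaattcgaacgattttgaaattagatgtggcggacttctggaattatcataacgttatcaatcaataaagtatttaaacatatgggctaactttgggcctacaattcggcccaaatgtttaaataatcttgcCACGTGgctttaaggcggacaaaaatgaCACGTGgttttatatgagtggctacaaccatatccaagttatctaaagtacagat
Between these 5 genes the PPL level was 1.87 to 22.4 RPKM for all but RBCS2B, at 0.667, and the wild-type level 4.51 to 39.7. The motifs were not concentrated on the widest gaps: the windows of LHCB1.1, LHCB1.2 and RBCS3B held neither. CACGTG was in 2 of the 8 reported PYE targets and 0 of 15 aquaporin genes.

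Aquaporins were also lower. Of 15 genes for water channels 14 were lower in PPL by value and 1 higher, with a median of -0.51, and 4 stood at least 2-fold lower. The widest were vacuolar members: TIP2;1 stood at 4.60 in PPL against 27.0, TIP2;3 at 21.2 against 113 and TIP2;2 at 64.1 against 179. PIP2;3, of the plasma membrane, stood at 12.4 against 31.4. For TIP2;1 and TIP2;3 the PPL level was also under that of pye-1, at 7.36 and 28.8. At the most abundant member, TIP1;2, PPL stood at 466, wild type at 723 and pye-1 at 113. All 14 genes of this list in the authors' table for pye-1 fell there, and none is in the table for PPL. Iron-sufficient wild type had the highest summed level, 15972 RPKM, against 3739 in iron-deficient wild type, 2466 in PPL and 1244 to 1981 in pye-1 and the other lines.

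Among both wild-type groups, pye-1 and PPL, some genes stood highest in iron-sufficient wild type and lowest, or level with pye-1, in PPL. Products named for lipid transfer made up 6 of the 110 genes at least 2-fold lower (5.45%, against 0.307% of all genes compared). At 1.5-fold or more they were 10 of 309 lower genes (3.24%) and 5 of 135 higher ones (3.70%), so members stood on both sides, more of them lower. Of the 10 genes at least 2-fold higher 0 had such a product. Among the 6, AT2G10940 had another pattern, at 0.189 in iron-sufficient wild type, 2.32 in iron-deficient wild type, 0.293 in pye-1 and 0.0126 in PPL. AT5G46900 stood at 248 in iron-sufficient wild type, 42.2 in iron-deficient wild type, 8.37 in pye-1 and 7.49 in PPL. Chosen after their values were seen, XTH17, a cell wall xyloglucan enzyme gene, stood at 36.3, 5.37, 1.67 and 0.829, CLE5, a signal peptide gene, at 76.3, 5.51, 3.62 and 1.13, and MRN1, for marneral synthase, at 42.2, 5.40, 1.61 and 1.61. Root hair genes leaned the same way with smaller gaps: 19 of 21 were lower in PPL and 2 higher, with a median of -0.43 against -2.16 in pye-1. XTH14 stood at 19.1 in PPL, 32.9 in wild type and 7.58 in pye-1, MRH6 at 3.06, 5.30 and 1.06, and PRP3, a cell wall protein gene of root hairs, at 21.6, 32.6 and 4.00.

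The lists for tissues deeper in the root had medians nearer to wild type than that of the root hair genes, with wider gaps at single members. So did the hair and non-hair fate list of the epidermis, with 4 genes higher, 4 lower and a median of 0.10. The Casparian strip list had 4 genes higher and 5 lower with a median of -0.18, and CASP5, for a protein of the strip domain, stood at 8.11 in PPL, 16.2 in wild type and 4.78 in pye-1. CASP1, its most abundant relative, stood at 72.6, 84.8 and 26.7. Suberin genes, whose polymer coats the endodermis, split 7 to 8 with a median of -0.01 in PPL and 0.89 in pye-1, and CYP86A1, an enzyme of suberin monomers, stood at 125, 113 and 220. Xylem genes were lower in 14 of 16 cases, with a median of -0.19 in PPL and -0.04 in pye-1, among them XCP2, a xylem peptidase gene, at 52.4, 67.2 and 64.4. Of 5 phloem genes 4 were lower and 1 higher, with a median of -0.14, and the only member past 1.5-fold was SWEET11, a sugar transporter gene, at 12.6, 23.7 and 4.27. The ground tissue regulators SHR and SCR stood at 14.7 and 12.7 in PPL and at 14.1 and 13.3 in wild type. These root markers were present in both groups, as the label of the tissue says.

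Low-oxygen genes leaned higher. All 19 were higher by value, 2 of them by 1.5-fold or more, with a median of 0.31 in PPL and 1.21 in pye-1, against 47.6% higher among all genes compared. PDC1, for pyruvate decarboxylase of fermentation, stood at 143 RPKM in PPL, 97.2 in wild type and 355 in pye-1, and ADH1, for alcohol dehydrogenase, at 415, 299 and 693. AT3G03270, of the adenine nucleotide alpha hydrolase family, had the widest gap, at 429, 246 and 835. At these genes PPL stood between wild type and pye-1. Nitrate genes leaned the same way, 10 higher and 1 lower with a median of 0.18, and besides NRT2.1 the nitrite reductase gene NIR1 stood at 45.7, 33.2 and 131.

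Glucosinolate and sulfur genes were on the other side of wild type from pye-1. All 9 aliphatic glucosinolate genes compared were higher in PPL by value, with a median of 0.48, where the median in pye-1 was -0.93 and 5 of them fell by the authors' table. CYP83A1, an enzyme of the shared core of the pathway, stood at 33.7 in PPL, 20.6 in wild type and 10.6 in pye-1. BCAT4, which opens methionine chain elongation, stood at 35.6, 24.8 and 9.62, and MAM3, which extends the chain, at 150 against 99.4 and 73.2. The summed level of the 11 genes in the list was 373 in PPL, 265 in wild type and 185 in pye-1, and SHR23 had the highest sum at 559. Of 9 sulfur genes 8 were higher with a median of 0.31, against -1.26 in pye-1, among them LSU2, a gene of the low-sulfur response, at 45.9, 34.5 and 14.1, and SDI1, of the same response, at 16.2, 12.7 and 2.55. The summed level of the 10 sulfur genes in the list was almost level between PPL and wild type, at 779 and 770, against 359 in pye-1. None of either list is in the authors' table for PPL.

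Heat shock genes were under wild type in PPL, and most were above it in pye-1. The 6 compared were all lower by value, with a median of -0.29 in PPL and 0.67 in pye-1. AT1G53540, of the HSP20-like family, stood at 3.62 in PPL, 7.00 in wild type and 27.2 in pye-1, and HSP17.4 at 6.20, 11.4 and 22.5. Redox genes did not share this pattern as a list: 8 of 11 were lower and 3 higher, with a median of -0.10 in PPL and -0.003 in pye-1. FSD1, for iron superoxide dismutase, had the same signs as the heat shock genes, at 17.3, 23.6 and 135. Reference genes gave a yardstick of the gaps: 7 of 9 were lower with a median of -0.04, the widest being ACT2 at 622 in PPL and 730 in wild type.

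Short transcripts took a further share of the 110 genes that were at least 2-fold lower. Of these, 34 (30.9%) had a product or description named for photosynthesis or chlorophyll, against 1.35% of all genes compared, and 17 (15.5%) were snoRNA genes, against 0.297%. Transcripts of at most 300 exon bases made up 23 (20.9%), against 1.02%, and 5 (4.55%) were of the plastid genome, against 0.254%. The excess of short transcripts was not limited to the lower side, since 2 of the 10 genes at least 2-fold higher were as short. At 1.5-fold or more short transcripts were 15 of 135 higher genes (11.1%) and 44 of 309 lower ones (14.2%). At that fold snoRNA genes were 4 of the higher genes (2.96%) and 27 of the lower ones (8.74%). snoRNAs are short and mostly without poly(A) tails, and the libraries were poly(A)-selected. AT2G17295, a snoRNA gene, stood at 0.252 in PPL, 7.90 in wild type and 0.706 in pye-1, where the authors' deposited table has it as a fall with q = 0.00527, and AT2G35742, also a snoRNA gene, was higher at 9.57 against 4.54. AT3G05730, annotated as a defensin-like gene, was listed at 0 in PPL and at 5.30 in wild type, 0.319 in pye-1 and 0.0371 in iron-sufficient wild type. Iron-deficient wild type was the highest of all 8 groups at 26 of the 110 genes (23.6%), against 9.63% of all genes compared, and PPL the lowest at 20, against 8.55%; choosing genes with PPL under wild type raises both counts by itself.

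Beside those named, the widest genes on the higher side included AT1G07175, annotated as an alternative NAD(P)H dehydrogenase, at 19.5 in PPL, 8.87 in wild type and 13.8 in pye-1, and PDF1, protodermal factor 1, at 14.9, 7.53 and 8.24; at both PPL was above pye-1 as well. AT5G13210 stood at 51.8 in PPL, 26.7 in wild type and 147 in pye-1. WER, a transcription factor gene of epidermal cell fate, stood at 7.86, 4.76 and 5.90. It was not among the 10 widest, and is named as the widest of the 8 hair and non-hair fate genes, which split 4 higher and 4 lower. Just inside the 2-fold line on the lower side were PIP2;6, at 0.381 in PPL and 1.28 in wild type, and AT4G26365, at 0.518 and 1.55, and just outside it CYP71A16, at 7.71 and 15.8, and BBX14, at 0.419 and 1.32.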

How the data were processed

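Poly(A)-selected, directional libraries were made from cut roots, per the labels' protocols. The submitters' processing notes name TAIR10, FastQC, TopHat2 and edgeR without versions or roles; the sources used here do not give the counting program, gene lengths or strand setting. The authors deposited RPKM as 1 mean column for each of 8 groups, and 7 tables of genes with q-values (p-values after adjustment by the authors; all listed are under 0.05). The table for PPL is headed PYE; it was matched to PPL by the MRD1 values and by the order of the column headings in a sheet of the deposited workbook whose contents were not used, where pye-1/PYE takes the place of PPL. Its RPKM were those of the group columns.

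Differences are log2(RPKM + 0.5), PPL minus iron-deficient wild type, over genes at RPKM 1 or more in either, and folds at thresholds use that scale, so low genes' changes are understated. The planned tests fell back on fixed folds and the authors' lists because only means were deposited. Low values of single-exon genes gave the reads: 79.2% (PPL) and 76.7% (wild type) of them lay within 0.2% of whole reads of 3 libraries; intervals cover counting error only. Whether samples came from separate cultures is not in the labels. The members and the 28 gene lists (368 genes) were chosen with earlier results of these data known. Named genes were PYE and the authors' listed genes, their 2 neighbours on each side, the 10 widest each way at RPKM 5 or more, per list up to 4 widest and 2 most abundant genes, the 10 largest rises and falls of pye-1, and 2 genes on either side of the 2-fold line. Symbols and coordinates came from RefSeq TAIR10.1, where 32835 of 33602 identifiers (97.7%) matched. The fold step was tested on simulated data. Python 3 with pandas and numpy was used.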

Additional observations from a re-analysis of the deposited data

How the results depend on the processing

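With 1 mean per group, leaving out samples could not be run, and no paired analysis was possible because the deposited columns are group means without replicate numbers. The counts depended most on the level filter. With RPKM of at least 5 in either group, 53 genes stood at least 2-fold apart in place of 120 (3 higher and 50 lower), and 218 at least 1.5-fold apart in place of 444 (67 higher and 151 lower). A pseudocount of 0.1 gave 32 genes at least 2-fold higher in place of 10 and 214 at least 1.5-fold higher in place of 135; no filter gave 19 and 213. Of the authors' 3 genes, 1 was left at a mean RPKM of at least 5 and 1 at a q of at most 0.01. Lower genes outnumbered higher ones under all 9 alternatives for both folds, among them 2 chosen after seeing the data: without photosynthesis products 10 genes were 2-fold higher and 76 lower, and with protein-coding genes only 8 and 80. Of 22 alternatives for the genes listed for pye-1 or iron deficiency, 21 moved the PPL median by less than 0.10 on the log2 scale, the median size of a difference over all genes; for genes at least 2-fold lower in pye-1 it went from -0.16 to -0.26. Of 112 alternatives for the list medians 111 stayed within the same bound and none changed sign; the photosynthesis median went from -1.37 to -1.49 with a pseudocount of 0.1. Setting the median difference to 0 moved values by 0.01. Low reads in PPL limit MRD1, LHCB1.1 and LHCB1.2.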
